A study of Canis lupus familiaris with 60 samples.

Results

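PTX3, pentraxin 3, was followed through patch tests in 12 Beagle dogs. It was represented by 1 probe with the identifier ENSCAFT00000014125, printed as 1 spot per array, among 54633 identifiers on the array and 41227 past the filter on dim spots. The gene was selected on its large 24 hr interaction, that is, the allergen minus saline difference of sensitized dogs minus that of nonsensitized dogs at 24 hr. Its 24 hr values are therefore given as a description without a test, and the tests concern untreated skin and the 6 hr sites. In the RefSeq annotation of the dog, PTX3 overlaps another gene, VEPH1, for which no probe was named here.

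The 6 sensitized dogs had been sensitized through the skin to the house dust mite Dermatophagoides farinae and had mite-specific IgE, and the 6 nonsensitized dogs were nonallergic controls. All dogs were 2 to 3 years old and shared housing and feed, and the laboratory sensitization is a model of atopic dermatitis, not the spontaneous disease. Each dog gave 5 punch biopsies of 8 mm: untreated skin of the clipped chest at 0 hr, and sites under a patch with 75 mg of mite paste (allergen) and with 50 µl of physiologic saline at 6 hr and 24 hr. This gave 10 groups of 6 one-colour arrays. The 24 hr allergen array of sensitized dog 2839 was left out, so that group held 5 arrays. The study excluded it for degraded RNA, a low overall signal and weak correlation with the other arrays. The 24 hr biopsies came from patch areas that had been biopsied at 6 hr, so time under the patch and an earlier biopsy nearby cannot be told apart. There were 4 males among the sensitized and 2 among the nonsensitized dogs. On the 59 arrays used, the median processed signal, which is the spot intensity after background subtraction, ranged from 81.7 to 146.12, and 68.85% to 80.15% of spots were well above background. Of the skin markers, KRT1, a keratin of the upper epidermis, had signals of 56566 to 237081 and COL1A1, a dermal collagen, of 16507 to 135214, both well above background on all 59 arrays.

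PTX3 encodes a secreted long pentraxin of innate immunity. Fibroblasts, endothelial cells, macrophages and dendritic cells make it on demand after interleukin 1, tumor necrosis factor or ligands of Toll-like receptors, and neutrophils store it in granules. The protein binds complement components such as C1q and factor H as well as P-selectin, opsonizes microbes, and is built into the hyaluronan matrix together with TNFAIP6 (TSG-6) and inter-alpha-inhibitor. No promoter or protein sequence of the gene is printed, since no sequence table was used here.

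PTX3 was close to background in untreated skin and at the 6 hr saline sites of all dogs but dog 2716, rose by 6 hr at the allergen sites of sensitized dogs, and had its highest group means at the 24 hr saline sites of both groups of dogs. A nonsensitized dog, 2704, had the highest single 6 hr allergen signal. On the log2 scale after variance stabilization, the order of the group means was 24 hr saline of nonsensitized dogs (10.66 ± 0.66, SD, n = 6), 24 hr saline of sensitized dogs (10.09 ± 0.73, n = 6), 24 hr allergen of sensitized dogs (9.07 ± 0.67, n = 5), and 6 hr allergen of sensitized dogs (7.66 ± 1.25, n = 6). They were followed by 6 hr allergen of nonsensitized dogs (6.51 ± 1.69, n = 6), 24 hr allergen of nonsensitized dogs (5.90 ± 0.53, n = 6), and 6 hr saline of nonsensitized dogs (5.76 ± 1.10, n = 6). The lowest means were those of untreated skin of nonsensitized dogs (5.35 ± 0.29, n = 6), untreated skin of sensitized dogs (5.33 ± 0.12, n = 6) and 6 hr saline of sensitized dogs (5.16 ± 0.14, n = 6). All 9 pairs of neighbours in this order overlapped in range, so adjacent groups were not separated by the dogs' values.

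**Figure D1:**
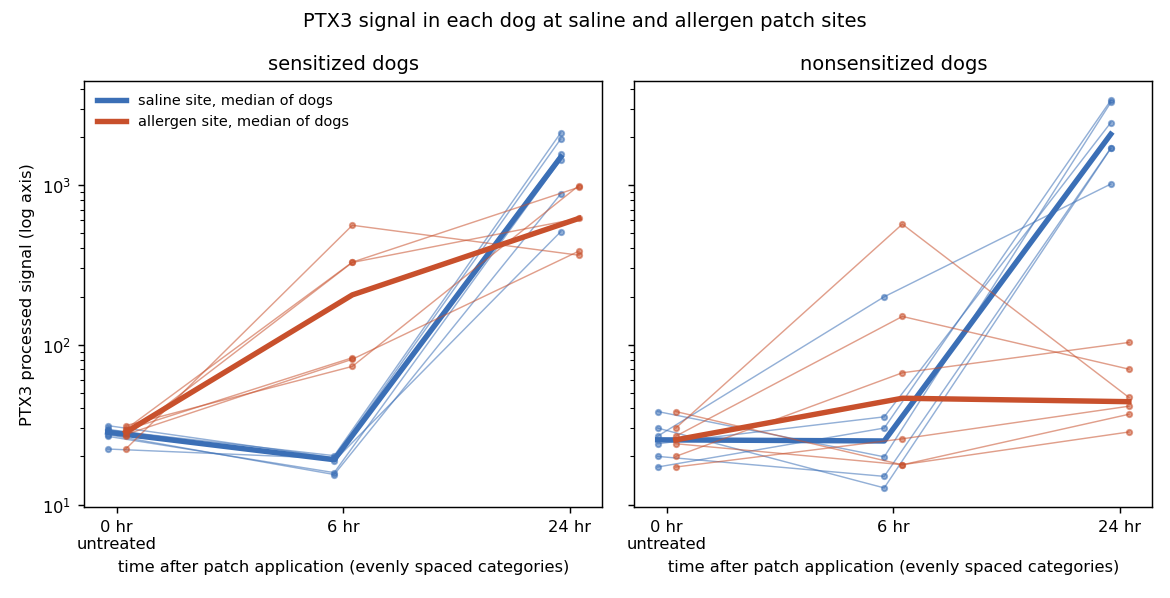
PTX3 processed signal (log axis) in untreated skin and at the saline (blue) and allergen (orange) sites at 6 hr and 24 hr, for 6 sensitized dogs (left; 5 at the 24 hr allergen site) and 6 nonsensitized dogs (right). Thin lines are dogs and thick lines medians: the saline median reached 1491 and 2071 at 24 hr, whereas the allergen median at 24 hr was 616 in sensitized and 44.0 in nonsensitized dogs.

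In untreated skin the processed signal of PTX3 ranged from 22.2 to 31.2 (median 28.3) in sensitized dogs and from 17.2 to 38.2 (median 25.4) in nonsensitized dogs. The spot was well above background on 6 and 5 of the 6 arrays, respectively. The nonsensitized range enclosed the sensitized one. The difference, sensitized minus nonsensitized, was -0.02 on the log2 scale with a 95% interval from -0.99 to 0.95 (limma, adjusted p = 1), and 0.00218% of the 45972 probes were called in this comparison. A probe was called when its adjusted p was below 0.05 and its change at least 1.5-fold. In the fit of all groups, limma SEs, intervals and p-values rest on 1 spread per probe shared by the 10 groups. They do not reflect the separate spreads of the groups compared.

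At 6 hr saline sites of sensitized dogs the signal lay between 15.4 and 20.2 (median 19.1), and on 2 of the 6 arrays it was not well above background. The signal was lower than in untreated skin in 6 of 6 dogs, whereas the variance-stabilized log2 value was lower in 5 of 6, with a difference of -0.17 ± 0.48 (SE, adjusted p = 0.859). In nonsensitized dogs it lay between 12.7 and 199 (median 25.0). The value of 199 belonged to dog 2716, and the next highest was 35.3. The nonsensitized difference from untreated skin was 0.41 ± 0.48 on the log2 scale (adjusted p = 0.632), positive in 4 of 6 dogs, and without dog 2716 it was 0.01. Among these 4 was dog 2847, whose signal was lower than in untreated skin (15.0 against 20.0). Of all probes, 2.65% were called in the sensitized and 2.27% in the nonsensitized dogs, in either direction.

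At 6 hr allergen sites of sensitized dogs PTX3 rose. The signals of the 6 dogs were 73.1, 81.0, 82.8, 327, 328 and 558, all above the 6 hr saline range and all well above background. The allergen site was higher than the saline site of the same dog in 6 of 6 dogs. In the 4 dogs whose saline spot was well above background the ratio was 3.73-fold, 4.10-fold, 17.5-fold and 28.8-fold in signal, and for dogs 2840 and 2853, whose saline spot was not, no fold is given. The values fell into a lower set (dogs 2839, 2840 and 2841) and a higher set (dogs 2838, 2853 and 2855). The mean difference was 2.50 ± 0.48 on the log2 scale (SE, 95% interval 1.53 to 3.47, adjusted p = 0.00351), at a background of 0.405% of probes called higher. The exact two-sided sign-flip test within dogs gave p = 0.03125, the smallest 6 dogs allow, and 0.125 after Benjamini-Hochberg adjustment over the 8 comparisons tested this way. The call was lost without dog 2838 (2.17, adjusted p = 0.114) and without dog 2855 (2.30, adjusted p = 0.0534).

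In nonsensitized dogs the 6 hr allergen signals were 17.7, 17.7, 25.8, 66.7, 150 and 567. These overlapped both the 6 hr saline and the untreated range. Dog 2704 had 567 at the allergen site against 12.7 at the saline site, where the spot was not well above background, and dog 2716 had 150 against 199. The allergen site was higher in 2 of 6 dogs. The mean difference was 0.75 ± 0.48 (95% interval -0.22 to 1.72, adjusted p = 0.946), 0.0348% of probes were called higher, and without dog 2704 the difference was 0.01. The difference between the 2 groups of dogs at 6 hr, the 6 hr interaction, was 1.75 ± 0.68 (95% interval 0.38 to 3.12). Its unadjusted p was 0.0134 and its adjusted p 1. The SE, the interval and these limma p-values rest on 1 spread shared by all 10 groups. The groups compared had SDs from 0.14 (6 hr saline, sensitized) to 1.69 (6 hr allergen, nonsensitized). limma called 0% of probes in the 6 hr interaction, and 522 had an unadjusted p below 0.05. The exact permutation of the sensitization labels over dogs gave p = 0.08225 for PTX3 (0.1645 after adjustment over the same 8 comparisons).

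Against untreated skin, the 6 hr allergen sites of sensitized dogs were higher in 6 of 6 dogs, by 2.33 ± 0.48 (adjusted p = 0.00087), with 2.21% of all probes called higher. In nonsensitized dogs they were higher in 4 of 6 dogs, by 1.16 ± 0.48 (adjusted p = 0.133), with 1.04% of all probes called higher. With the slide as a fixed block the sensitized difference was 1.71 (adjusted p = 0.215). The 0 hr arrays lay mostly on other slides than the 6 hr arrays.

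The comparison of 6 hr allergen and saline sites could also be read within slides. On slide 5, the 3 allergen arrays of sensitized dogs had 73.1 to 327 and the 3 saline arrays 15.4 to 19.6. On slide 6, the 2 allergen arrays had 328 to 558 and the 3 saline arrays 18.7 to 20.2. These groups of sensitized dogs did not overlap on either slide. In nonsensitized dogs on slide 4, the 4 allergen arrays had 17.7 to 567 and the 3 saline arrays 19.87 to 35.35, which overlapped. On slide 5 the 2 nonsensitized saline arrays had 12.7 and 199.

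**Figure D2:**
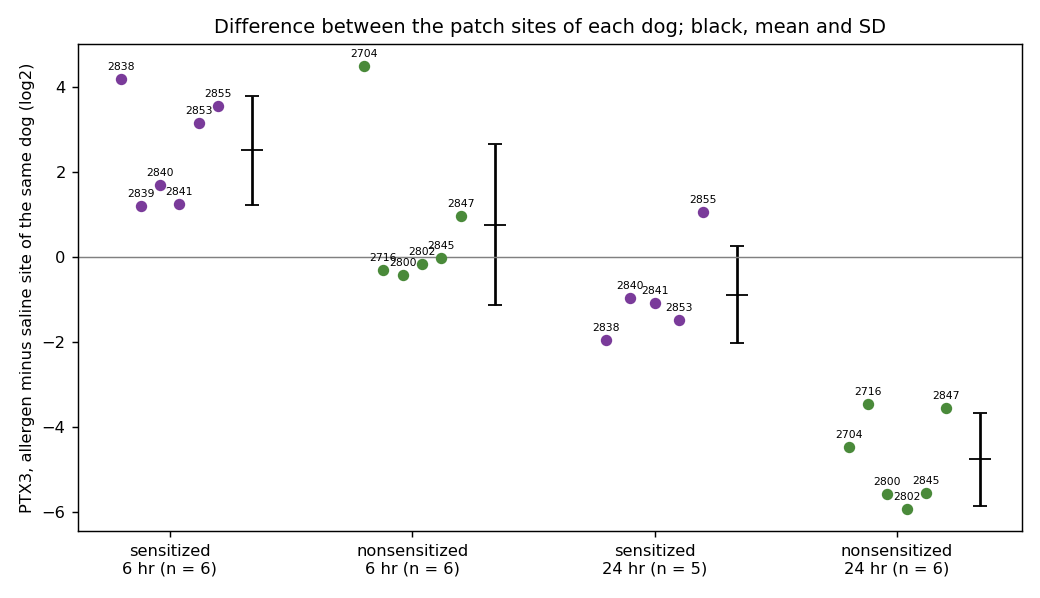
Difference in PTX3 between the allergen and the saline site of the same dog (log2), at 6 hr and 24 hr, in sensitized (purple) and nonsensitized (green) dogs, each point labelled with its dog. Black bars are the mean and SD: at 6 hr all 6 sensitized dogs were above 0, and at 24 hr all 6 nonsensitized dogs were below -3.

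At 24 hr PTX3 was abundant at the saline sites of every dog. The signal was 509 to 2114 (median 1491) in sensitized and 1011 to 3371 (median 2071) in nonsensitized dogs, against at most 38.2 in untreated skin. The ratio to untreated skin of the same dog was 17.2-fold to 72.3-fold (median 57.9-fold) in sensitized and 37.8-fold to 102-fold in the 5 nonsensitized dogs whose untreated spot was well above background. In dog 2802, whose untreated spot was not, the signal was 17.2 in untreated skin and 3371 at the 24 hr saline site. The mean log2 difference was 4.76 with an SD of 0.75 over the sensitized dogs, and 5.31 with an SD of 0.78 over the nonsensitized dogs. From 6 hr to 24 hr the saline sites rose by 4.94 ± 0.69 and 4.90 ± 1.54 (SD, n = 6 each). The 6 hr saline spot was not well above background on 2 of the 6 sensitized and 1 of the 6 nonsensitized arrays, so these differences rest in part on unmeasured low values.

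At the 24 hr allergen sites the 2 groups of dogs differed. In the 5 sensitized dogs the signals were 363, 385, 616, 965 and 988, above every untreated and 6 hr saline value of these dogs. In the 6 nonsensitized dogs they were 28.4, 36.7, 41.2, 46.8, 70.3 and 103, partly within the untreated range. No value of one group reached the other group. Against untreated skin, the mean log2 difference at allergen sites was 3.71 with an SD of 0.65 over the 5 sensitized dogs. Over the 6 nonsensitized dogs it was 0.55, also with an SD of 0.65.

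The allergen site was lower than the saline site of the same dog in 6 of 6 nonsensitized dogs, by 14.4-fold to 89.2-fold (median 59.0-fold), or -4.76 ± 1.09 (SD, n = 6). In sensitized dogs it was lower in 4 of 5 dogs, with a mean difference of -0.89 ± 1.15 (SD, n = 5). The exception was dog 2855, whose saline site had the lowest 24 hr saline signal (509) and whose allergen site had 965. The 24 hr interaction on which PTX3 was chosen was 3.73 in the fit of all groups. Within slides, the 4 allergen arrays of nonsensitized dogs on slide 1 had 28.4 to 103 and the 3 saline arrays 1011 to 3272. On slide 3, the 3 allergen arrays of sensitized dogs had 363 to 965 and the 3 saline arrays 509 to 1935, which overlapped.

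No slide held a 24 hr saline array beside a 0 hr or 6 hr array, so the slide and the rise at saline sites cannot be told apart within slides. In the scan session that held both times, the 3 saline arrays of sensitized dogs at 24 hr had 509 to 1935 and the 6 at 6 hr had 15.4 to 20.2. On slide 8, the 24 hr allergen array of sensitized dog 2840 had 385 beside 26.7 to 31.2 in untreated skin of 3 sensitized dogs.

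The order of the allergen sites in time differed between dogs. From 6 hr to 24 hr the allergen signal went up in 4 of 5 sensitized dogs, by as much as 13.5-fold in dog 2841, and went from 558 to 363 in dog 2838. In nonsensitized dogs it went up in 4 of 6, at most 2.07-fold. These signals were not scaled between arrays. On the variance-stabilized log2 scale the 4 rises were 0.07 (dog 2800), 0.13 (dog 2802), 0.39 (dog 2845) and 0.68 (dog 2847). In dog 2704 it went from 567 to 46.8 and in dog 2716 from 150 to 70.3. Dogs 2838 and 2704 had the highest 6 hr allergen signals of their groups.

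The other genes of the pathway were taken from lists of pentraxins, inducers and receptors, matrix partners, complement and selectin partners, and other genes that interleukin 1 and tumor necrosis factor induce. No other pentraxin (CRP, APCS, NPTX1, NPTX2, NPTXR) was named on the array. In all, 27 other list genes were measured, of which 9 (TNFAIP6, VCAN, C3, FCGR2B, ADAMTS4, CCL3, CXCL1, CXCL6 and SOCS3) were named only through the study's annotation of genes it had selected on the 24 hr interaction. For those 9, no comparison that uses the 24 hr arrays is independent evidence of a direction.

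At 6 hr in sensitized dogs, 10 of the 27 genes were called higher at allergen than at saline sites and none lower. Of all probes, 0.405% were called higher. Among the called genes, TNFAIP6, ADAMTS4, SOCS3 and CXCL1 were named only through the study's selection of genes in these same dogs. The gene lists were also chosen with earlier results of these data known. The count is therefore a description and is not read against this background. None of the 6 inducers and receptors passed. IL1A, the gene of interleukin 1 alpha, differed by 0.51 ± 0.19 (SE) and TNF, the gene of tumor necrosis factor, by 0.16 ± 0.10. The median over these 6 was 0.38, against -0.0012 over all probes. Of the 3 matrix partners, TNFAIP6 rose by 3.11 ± 0.53 (adjusted p = 0.000816). VCAN, the proteoglycan versican, differed by 0.94 ± 0.25 (adjusted p = 0.0671), and CD44, the hyaluronan receptor, by 0.24 ± 0.10. The complement gene C3 differed by 0.53 ± 0.36 and the Fc receptor gene FCGR2B by 0.84 ± 0.34, and neither passed.

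Of the 16 other induced genes, 9 rose, with a median over the 16 of 1.63. They included the monocyte chemokine CCL2 (2.85 ± 0.42, SE), the aggrecanase ADAMTS4 (2.98 ± 0.61), the prostaglandin synthase PTGS2 (2.56 ± 0.45), E-selectin SELE (2.47 ± 0.39), the adhesion molecule ICAM1 (1.81 ± 0.28), the signalling inhibitor SOCS3 (1.45 ± 0.26), the neutrophil chemokine CXCL1 (0.99 ± 0.24) and IL6. The probe of IL6, the gene of interleukin 6, was not well above background on any 6 hr saline array of these dogs, and its allergen mean was at least 4.49-fold higher than the bound set by the dimmest probes well above background (adjusted p = 0.00282). CXCL8, the gene of interleukin 8, had a difference of 3.09 ± 0.81 that did not pass (adjusted p = 0.0631), and its saline spot was well above background on 3 of 6 arrays. Without dog 2838, and likewise without dog 2855, 6 of the 27 genes were called, and 14 were called with the dog and 15 with the slide as a fixed block. Over all probes, 186 were called higher in the fit without a block, 366 with the dog and 362 with the slide. All-probe counts without dog 2838 or dog 2855 are not given, so the fall to 6 is not read as particular to the list genes.

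In nonsensitized dogs, 0 of the 27 genes were called at 6 hr by limma, where 0.0348% of all probes were called higher, and the median over the 16 induced genes was 0.56. Over all probes, 2513 had an unadjusted p below 0.05 in this comparison. In the 6 hr interaction 0 of the 27 were called.

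**Figure D3:**
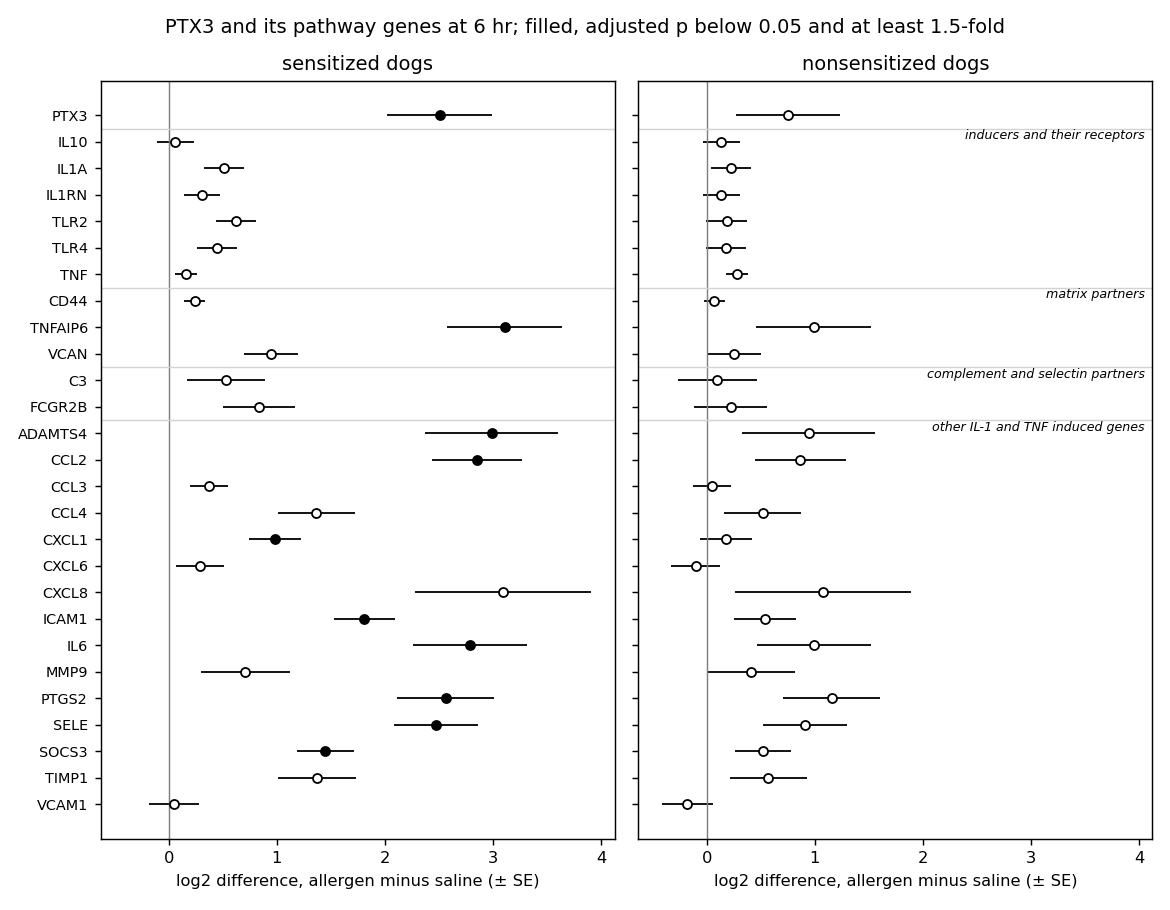
Log2 difference between allergen and saline sites at 6 hr (± SE) for PTX3 and 26 of the 27 list genes measured, in sensitized (left) and nonsensitized (right) dogs. Filled points were called, PTX3 and 9 of the list genes drawn in sensitized dogs and none in nonsensitized dogs; IL6 and CXCL6 were not well above background on any sensitized saline array and CXCL8 and CCL3 on 3 of 6, so these points are not measured folds.

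Against untreated skin, 19 of the 27 genes were called higher at 6 hr allergen sites in sensitized dogs and 12 in nonsensitized dogs. The backgrounds were 2.21% and 1.04%. Part of the 27 were named only through the study's selection in these dogs. Both counts are therefore a description and are not read against the backgrounds. With the slide as a fixed block these counts were 3 and 0, while 165 and 7 of all probes were called higher, against 1018 and 478 without it. At 6 hr saline sites limma called 0 of the 27 genes in sensitized dogs, where 2.65% of all probes were called and 12477 had an unadjusted p below 0.05. In nonsensitized dogs it called 2 (CCL2 and SELE, both higher), where 2.27% of all probes were called. With the slide as a fixed block 0 of the 27 genes and 0 of all 45972 probes were called in both groups of dogs.

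At 24 hr saline sites, against untreated skin, 17 of the 27 genes were called higher in sensitized and 19 in nonsensitized dogs, where 4.35% and 9.89% of all probes were called higher. TNFAIP6 rose by 3.30 and 3.33, and VCAN by 1.74 and 2.66. TNF (-0.15 and -0.28) and IL10 (-0.50 and -0.27) were not called. At 24 hr allergen sites, 23 genes were called higher in sensitized and 8 in nonsensitized dogs, at backgrounds of 7.61% and 5.73%. The 24 hr saline and allergen arrays both enter the 24 hr interaction, through which 9 of the 27 were named. The counts of 17, 19, 23 and 8 are therefore a description. They are not set against each other or read against the backgrounds. With the slide as a fixed block the counts of 24 hr sites against untreated skin were 4, 3, 12 and 0 in the same order. Over all probes, 2342, 1056, 3172 and 669 were called higher with the slide block, against 1999, 4547, 3498 and 2632 without it.

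Between the 24 hr sites of nonsensitized dogs, 9 of the 27 genes were called lower at the allergen site, at a background of 0.659%, and 12 with the dog as a paired block (465 of all probes, against 303 without it). Of these 9, CCL2, ICAM1, IL6 and TIMP1 were named through RefSeq. The other 5, TNFAIP6 (-2.54) and VCAN (-1.58) among them, were named through the study's selection on the 24 hr interaction, of which this difference is a component, so the count is a description and is not read against the background. In sensitized dogs, 0 of the 27 were called higher at the allergen site by limma, where 0.174% of all probes were called higher and 5150 had an unadjusted p below 0.05. With the dog as a paired block 2 of the 27 and 332 of all probes were called higher, against 80 of all probes without it. In the 24 hr interaction 9 genes were called higher, at a background of 0.600%, and the count was 1 without dog 2855, 5 without dog 2838 and 15 with the dog as a paired block (964 of all probes, against 276 without it). These comparisons share arrays with those of PTX3. For the interaction without dog 2855 or dog 2838, all-probe counts are not given. The falls to 1 and 5 are therefore not read as particular to the list genes.

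The 6 hr values of dogs 2704 and 2716 that stood apart in PTX3 did so in TNFAIP6 and IL6, and in VCAN only for dog 2704. At the 6 hr allergen sites of nonsensitized dogs, TNFAIP6 signals were 5667.5 in dog 2704 and 1335 in dog 2716, against 133 to 392 in the other 4 dogs. At the 6 hr saline sites dog 2716 had 1022 and the others 116 to 270. IL6 showed the same dogs, with 311 and 219 at allergen sites of dogs 2704 and 2716 and 163 at the saline site of dog 2716. VCAN signals at the allergen sites were 608 in dog 2704 and 251 in dog 2716, beside 247 in dog 2847, and at the saline sites 272 in dog 2716 beside 248 in dog 2802. Among sensitized dogs at 6 hr, dog 2838 had the highest TNFAIP6 allergen signal (4276.5) and dog 2855 the highest IL6 signal (317). At 24 hr, the saline site of dog 2855 was the lowest of its group for PTX3, TNFAIP6 (650), IL6 (29.3) and CCL2 (6209.5).

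Markers of immune cells moved with PTX3 in part. In these biopsies fewer cells of a type and less RNA per cell cannot be told apart. Of 5 markers of macrophages and monocytes, CD163 and MRC1 were measured. Their summed signal was 328 to 1051 in untreated skin, 1561 to 5341 at 24 hr saline sites, 1564 to 2403 at 24 hr allergen sites of nonsensitized dogs and 1710 to 5467 at those of sensitized dogs. Both were called higher at 24 hr saline sites than in untreated skin in both groups of dogs, by 1.34 and 1.79 in sensitized and by 1.87 and 2.10 in nonsensitized dogs, where 4.35% and 9.89% of all probes were called higher. Both were also called higher at the 24 hr allergen sites of nonsensitized dogs, by 0.97 and 1.13 (background 5.73%), where the PTX3 difference from untreated skin was 0.55. At 6 hr neither was called between allergen and saline sites. MRC1 was named through the study's selection on the 24 hr interaction, so its 24 hr calls are a description and are not read against the backgrounds.

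Of 6 granulocyte markers, S100A8 and CXCR2 were measured, and the other 4, the granule enzyme gene MPO among them, had no named probe. S100A8, which keratinocytes also express, had signals of 132218 to 245993 at the 24 hr allergen sites of sensitized dogs and 21045 to 64540 at their saline sites, without overlap. PTX3 was lower at the allergen site in 4 of 5 of these dogs. The S100A8 difference was 2.44 ± 0.69 (SE, adjusted p = 0.0895). The group means of CXCR2, a chemokine receptor of neutrophils, lay between 5.16 and 5.47 on the log2 scale in all 10 groups. These were near the PTX3 means of untreated skin (5.33 and 5.35), where PTX3 was close to background. They therefore do not show whether CXCR2 changed. Over the 59 arrays the mean level of the macrophage markers had r = 0.78 with PTX3 and that of the granulocyte markers 0.68. MRC1 is part of the macrophage level and was named through the study's selection on the 24 hr interaction, so that r is a description. The granulocyte r rests mainly on S100A8, since the group means of CXCR2 spanned little. For the other marker lists r was -0.54 (keratinocytes, 2 of 6 measured), -0.27 (adipocytes, 1 of 3), -0.20 (fibroblasts, 3 of 4), 0.00 (T cells, 3 of 5), 0.06 (endothelium, 2 of 4) and 0.21 (mast cells, 2 of 4). These arrays share dogs and slides. The part of any of these cells in the PTX3 values was not tested.

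The genes whose values were most like PTX3 over the 59 arrays were found by Pearson r, as a description, since all arrays share dogs, slides and the 24 hr sites on which PTX3 was chosen. Over all other probes r had a median of -0.02, a 99th percentile of 0.78 and a maximum of 0.96. That maximum belonged to TC58557, a probe with no symbol here, with group means from 5.08 in untreated skin of sensitized dogs to 8.71 at 24 hr saline sites of nonsensitized dogs. An IL33 probe, of an alarmin cytokine of the interleukin 1 family, had r = 0.92, but was not the brightest probe of its symbol.

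With each symbol represented by its brightest probe, the 10 named genes with the highest r were RTEL1 (0.95), a DNA helicase, CD46 (0.93), a complement regulator, ATP2B3 (0.92), a plasma membrane calcium pump, VCAN (0.92), METTL1 (0.91), a tRNA methyltransferase, CDA (0.89), cytidine deaminase, NNMT (0.89), nicotinamide N-methyltransferase, TIMP1 (0.88), an inhibitor of metalloproteinases, ADAMTS1 (0.88), a protease that cleaves versican, and HSPA5 (0.88), a chaperone of the endoplasmic reticulum. Apart from TIMP1 they were named through the study's annotation of its 24 hr list, which is old, and these names were not checked against a probe sequence. The 3 highest group means of each of these 10 genes were those of both 24 hr saline groups and of the 24 hr allergen sites of sensitized dogs, as the choice of the genes for their likeness to PTX3, and of 9 of them through the study's 24 hr selection, largely fixed. The span of group means was smaller than the 5.50 of PTX3, for example 6.07 to 8.72 for RTEL1 and 12.61 to 15.33 for TIMP1. Only 2 of the 10 remained among the 10 named genes most like PTX3 when the 24 hr arrays were left out. TIMP1 had r = 0.93 over those 0 hr and 6 hr arrays.

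The 5 named genes with the lowest r were DEPDC6 (-0.83), an inhibitor of mTOR signalling, NECAB3 (-0.80), C12orf28 (-0.79), KRT15 (-0.79), a keratin of basal and hair follicle keratinocytes, and CCDC189 (-0.79). Apart from CCDC189 they too were named through the study's 24 hr list. The group mean of KRT15 was 8.64 in untreated skin of sensitized dogs and 7.44 at their 24 hr allergen sites.

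**Figure D4:**
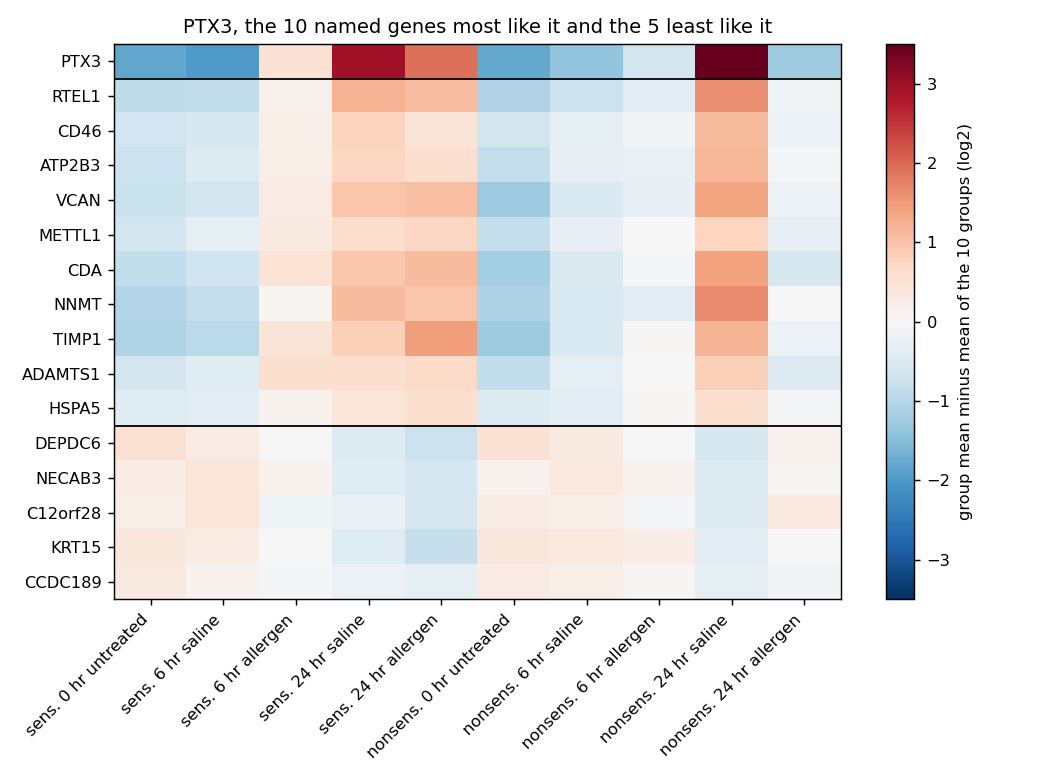
Group means minus the mean over the 10 groups (log2, colour) for PTX3 (top row), the 10 named genes with the highest and the 5 with the lowest Pearson r with PTX3 over 59 arrays. The genes above the lower line share the high 24 hr saline and sensitized 24 hr allergen groups with PTX3, at a smaller span.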

How the data were processed

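The members and the gene lists were chosen with earlier results of these data known. The authors labelled RNA with Cy3, hybridized canine 8-array slides and read them with Agilent Feature Extraction (10.7.3.1). The deposited intensity values are processed signals after background subtraction, without scaling between arrays, and the series table holds the same signals. For 2 arrays of dog 2847 they were whole numbers in plain tables. Here, outlier spots were treated as missing. A spot was kept if some group had 5 or more arrays on which it exceeded background clearly, by the file's flag (47229 of 61657 spots, 45972 probes). Signals were variance stabilized with an own implementation of the vsn model, tested on simulated data, and spots of a probe averaged. limma (3.58.1, R 4.3.3) fitted the 10 groups jointly and unpaired (the study's methods describe unpaired analyses made separately for each time), with Benjamini-Hochberg adjustment over all probes. The number of dogs limits the precision. Samples with the same number came from the same dog (median correlation of deviations 0.386 over 116 same-dog pairs, -0.034 over 1450 others), and the dog as a block was an alternative. Exact tests used scipy 1.17.1 over dogs, 0 hr and 6 hr values only.

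Symbols came from RefSeq accessions (898) or only from the study's annotation of its 24 hr genes (337), and the brightest probe stood for a symbol. Named were PTX3, the 10 genes and 10 probes most like it, the 5 genes least like it, and list members past the thresholds with up to 4 others of each list. Of the list members past the thresholds, the text gives those of the comparisons it describes. Alternatives were other scalings, filters, blocks, a separate fit, 60 arrays with and without weights, and each dog left out. Counts over the lists with 75th percentile scaling, a slide block, or without dog 2838 or 2855 were added after the data were seen. An alternative with single probes or spots did not apply, since PTX3 had 1. 1 list member is counted but not reported here by name. The authors' own fold changes and p-values were not used.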

Additional observations from a re-analysis of the deposited data

Results flagged for a closer look

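In 26 sets of dogs (the PTX3 level in each of the 10 groups and 16 differences within dogs), a single dog lay apart in 4, and chance alone marks about 1 set in 20. The PTX3 log2 value of nonsensitized dog 2716 at the 6 hr saline site was 7.92, and its rise from 6 hr to 24 hr saline was 1.84, the lowest of its group. The 6 hr allergen minus saline difference of nonsensitized dog 2704 was 4.48, with a saline spot not well above background. The 6 hr saline minus untreated difference of sensitized dog 2839 was 0.10 on the log2 scale, where the other 5 dogs were below 0. Its processed signal was lower at 6 hr saline (20.2) than in untreated skin (29.2).

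Beside PTX3, these list and marker genes had 24 hr differences between allergen and saline that differed between sensitized and nonsensitized dogs by the interaction term (limma, adjusted p below the threshold): ADAMTS4 by 3.34, IL6 by 2.91, SELE by 2.47, CCL2 by 2.36, TIMP1 by 2.05, FCGR2B by 1.84, CXCL6 by 1.84, VCAN by 1.67, MRC1 by 1.61 and CCL3 by 0.92 on the log2 scale. At the 24 hr allergen sites of nonsensitized dogs CXCL6 was not well above background on any array, and IL6 and CCL3 were on 1 of 6 arrays each. CCL3 was so on 2 of 6 of their 24 hr saline arrays. The differences of these 3 genes are not measured folds. ADAMTS4, FCGR2B, CXCL6, VCAN, MRC1 and CCL3 were named through the study's list of this same interaction. Of all probes, 0.600% were called higher in it. Without dog 2855 the list genes called went from 9 to 1.

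The array left out, of dog 2839 at the 24 hr allergen site, had a PTX3 processed signal of 53.9. This was above the highest untreated value (38.2) and below the lowest value of the other 5 sensitized dogs at that site (363). It lay within the range of the nonsensitized dogs at that site (28.4 to 103).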

How the results depend on the processing

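The 6 hr allergen minus saline difference of sensitized dogs was called under every alternative of scaling, filter, block, array set and separate fit (1.60 to 3.24, adjusted p up to 0.0476). It ranged from 2.17 to 2.77 with 1 dog left out, and without dog 2838 or dog 2855 it was no longer called; the cause was not tested. The 6 hr allergen minus untreated difference of sensitized dogs ranged from 2.02 to 2.58 with 1 dog left out and was no longer called with the slide as a fixed block (1.71). The difference in untreated skin changed sign with 75th percentile scaling (0.0141), without a filter (0.0187) and with quantile scaling (0.0114), and ranged from -0.0906 to 0.0618 with 1 dog left out. The nonsensitized 6 hr saline minus untreated difference was -0.42 with the slide as a fixed block. The dog as a replicate block left the 6 hr sensitized difference at 2.50 (adjusted p = 0.00456), and it changed no call of PTX3. It moved the list genes called in the 24 hr interaction from 9 to 15, at 6 hr in sensitized dogs from 10 to 14, lower at 24 hr in nonsensitized dogs from 9 to 12, and those called higher at the 24 hr allergen sites of sensitized dogs from 0 to 2.

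Of the 24 hr values, normexp with quantile scaling gave 3.63 and 4.10 for saline minus untreated in sensitized and nonsensitized dogs, 2.70 for allergen minus untreated and 3.70 for 24 hr minus 6 hr saline in sensitized dogs. The last was 5.79 with 75th percentile scaling, 5.63 without a filter and 5.70 with quantile scaling, and allergen minus untreated was 4.41 with quantile scaling. The span of the group means was 6.37 with 75th percentile scaling. With 75th percentile scaling 1 list gene was called at 6 hr saline sites of sensitized dogs. The slide as a fixed block gave 15 list genes at the 6 hr allergen minus saline comparison of sensitized dogs, 2 at the 24 hr allergen minus saline comparison of sensitized dogs, 0 at 6 hr saline sites of nonsensitized dogs, 3 and 0 at 6 hr allergen sites, 4 and 3 at 24 hr saline sites, and 12 and 0 at 24 hr allergen sites against untreated skin. Without dog 2838 or dog 2855 the counts of list genes were 6 and 6 (6 hr allergen minus saline), 1 and 0 (6 hr saline), and 5 and 1 (24 hr interaction). All-probe counts of these fits are not given, so the changes are not read as particular to the list genes. Of the 10 genes most like PTX3, 6 remained by Spearman rho, 3 by deviations from group means and 2 without the 24 hr arrays.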

Other observations

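The study's annotation paired a further probe, TC67692, with PTX3, though its identifier did not meet the rule. Over the 59 arrays its r with PTX3 was 0.82. Its group means were 9.27 in untreated skin of sensitized and 9.26 of nonsensitized dogs, and 9.86 and 10.09 at their 24 hr saline sites. At the 24 hr allergen sites they were 10.03 in sensitized and 9.40 in nonsensitized dogs. At 6 hr its means lay between 9.30 and 9.58. Its span over the 10 groups was thus much smaller than that of the PTX3 probe, and whether both probes measure the same transcript was not tested.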
